A study of Mus musculus with 38 samples.

Results

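Blnk, Gpnmb and 8 genes of microglia were followed through all libraries of the series. The 10 genes were taken by symbol from the 23420 genes counted in every library. They were chosen by the measured difference in FC mice (below), in which Blnk and Gpnmb stood far apart between reporter-positive and reporter-negative cells of fear conditioned mice, and since both are better known from immune cells than from neurons. The differences of these 10 genes between dVenus+ and dVenus- cells of fear conditioned mice are therefore given as a description, and that contrast is tested for them only in mice that received no shock. Genes outside the 10, and relations among libraries of 1 dVenus sign, were tested in fear conditioned mice too. The question was whether Blnk and Gpnmb follow the microglial genes from library to library, or the genes that neuronal activity turns on.

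All mice were adult male Arc::dVenus animals on C57BL/6J, in which the promoter of the activity-regulated gene Arc drives dVenus, a destabilized fluorescent protein, so a green cell is a cell with a recently active Arc promoter and not a cell marked for good. From each mouse 10 green (dVenus+) and 10 nongreen (dVenus-) cells of the dentate gyrus granule cell layer were aspirated through a patch pipette and pooled into 1 library each. The 12 fear conditioned mice (FC) had tones paired with foot shocks the day before, the 4 no-shock mice (NS) had the same session without shocks, and the 3 home cage mice (HC) had no session. This gave 38 libraries, and NS and HC together are called unshocked mice below. The FC libraries carry 3 sample number series, with 6, 4 and 2 mice, and the 7 unshocked mice carry another, so shock and series cannot be told apart. The labels of the unshocked libraries disagree in part: in 6 of 14 (4 NS, 2 HC) the free-text description names the other dVenus sign than the title, and descriptions also pair libraries to other mice. The title, the cell type, the mouse number and the sample number give the same groups and were used throughout.

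Blnk encodes an adaptor protein that links an antigen receptor with its activating motif (an ITAM) to Syk, Btk and phospholipase C gamma, and is best known from B cells and macrophages. Gpnmb encodes a membrane glycoprotein of lysosome-rich cells such as melanocytes, macrophages and phagocytic microglia, where factors of the MITF family turn it on. Microglia are the resident macrophages of the brain: they need the receptor Csf1r to survive, sense neurons through Cx3cr1 and P2ry12, make complement (C1qa, C1qb), bind antibody through Fcgr3, and signal lipid and debris contact through Trem2 and its ITAM partner Tyrobp.

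The sequences around a RefSeq start site of Blnk and of Gpnmb are shown because the question turns on which program these genes follow. RefSeq (GRCm38.p6) gave promoters, 250 bases before to 50 after a start site, for 7 of the 10 genes. Blnk lies on the minus strand, with its promoter at chr19:40994172-40994471, and Gpnmb on the plus strand, with its promoter at chr6:49036268-49036567. Capitals mark each match to 1 of 6 motifs searched on both strands.
Blnk: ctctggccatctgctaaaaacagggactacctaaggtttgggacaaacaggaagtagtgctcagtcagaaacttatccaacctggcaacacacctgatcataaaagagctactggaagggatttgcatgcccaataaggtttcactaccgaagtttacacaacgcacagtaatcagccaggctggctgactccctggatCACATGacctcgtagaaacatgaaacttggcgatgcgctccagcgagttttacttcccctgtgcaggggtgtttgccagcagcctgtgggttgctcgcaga
Gpnmb: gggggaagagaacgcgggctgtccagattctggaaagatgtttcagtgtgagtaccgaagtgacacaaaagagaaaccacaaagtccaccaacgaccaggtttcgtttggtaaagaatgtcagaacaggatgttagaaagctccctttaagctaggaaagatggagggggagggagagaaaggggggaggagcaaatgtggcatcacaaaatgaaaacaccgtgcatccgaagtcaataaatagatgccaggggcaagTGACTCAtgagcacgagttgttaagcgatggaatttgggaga
The capitals in Blnk are an E-box (CATGTG, here on the other strand), whose first base lies at -51 from the start site, and 14.2% of all RefSeq promoters of this length held that motif. The capitals in Gpnmb are an AP-1 motif (TGANTCA) at +9, held by 7.81% of promoters. Neither window held the CRE (TGACGTCA, in 1.79% of promoters), its half-site (TGACG, in 20.8%, every CRE included), the E-box CACGTG (7.15%) or the letters GAGGAAG of a PU.1 site (13.6%). A match is a description of letters and not a bound site, and a missing match says only that these letters are not in this window.

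In the GENCODE M21 annotation of GRCm38, Blnk spans chr19:40928927-40994535 and Gpnmb chr6:49036546-49070929, and no other annotated gene overlaps either. C1qa (chr4:136895917-136898803), C1qb (chr4:136880129-136886187), Tyrobp (chr7:30413760-30417585) and Trem2 (chr17:48346401-48354147) also stand alone. For Blnk and Gpnmb the GENCODE start differs from the RefSeq start used for the promoters. The Blnk promoter window lies wholly inside the GENCODE span, and the GENCODE start of Gpnmb lies inside its window. P2ry12 (chr3:59216272-59262871) lies within the Med12l locus, Csf1r (chr18:61100598-61132149) overlaps Hmgxb3 and Mir6983, Fcgr3 (chr1:171051174-171064935) overlaps Mir6546 and has close paralogs, and Cx3cr1 (chr9:119901616-120069879) has a long transcript that overlaps 9 genes. The library kit does not mark strand, so where exons overlap, reads of these 4 genes could not be told from those of their neighbours by strand. These are overlaps of whole spans in GENCODE, while the authors counted reads on NCBI transcripts. How far the values of these 4 genes are affected was not tested.

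Between 1352288 and 18394761 reads were counted on genes per library. Levels are given as counts, or as normalized CPM, which are CPM on genes (counts scaled to a common library total) corrected by TMM factors that ran from 0.306 to 1.83. Arc, the gene behind the reporter, was higher in the dVenus+ library in 19 of 19 mice, at 147 to 1540 normalized CPM in dVenus+ and 0 to 172 in dVenus- libraries. The dVenus- libraries of FC mice 6, 7 and 14 stood apart with 1276, 1095 and 2549 Arc counts, against at most 51 in the other 16. At least 3 of 6 granule cell markers reached 10 counts in every library, with a median summed level of 919.6 normalized CPM in FC dVenus+ and 1984.4 in FC dVenus- libraries. The B cell marker Cd79b had 0 counts in all libraries together. Cd79a, its partner in the B cell receptor, reached 350 counts in the FC dVenus- and 86 in the NS dVenus+ libraries, and 1 count in FC dVenus+ libraries. In pools of 10 cells, fewer cells of a type and less RNA per cell cannot be told apart.

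In FC mice Blnk was found in 12 of 12 dVenus+ libraries and had at most 1 count in 11 of 12 dVenus- libraries. It had between 21 and 1311 counts in FC dVenus+ libraries, with a median of 460.5, or 3.87 to 210 normalized CPM with a median of 48.8. In FC dVenus- libraries it had 0 counts in 9 mice, 1 count in 2 mice and 43 counts in mouse 12. Blnk was thus higher in dVenus+ cells in each mouse, but the 43 counts in the dVenus- library of mouse 12 were as many as or more than those of 4 dVenus+ libraries (mice 3, 5, 6 and 7). Summed over mice, Blnk was 207-fold higher in dVenus+ libraries (95% counting interval 155 to 285, counting error only), from 6785 against 45 counts. That ratio rests on mouse 12, which held 43 of the 45 counts, and without it the ratio was 3923 (counting interval 1086 to 32405, from 2 dVenus- counts). The fit within mice put the log2 fold change at 8.28 ± 1.05 (SE, n = 12 mice), and leaving out 1 mouse at a time gave 7.95 to 11.1.

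The raw Blnk counts of FC dVenus+ libraries, which also depend on depth, fell into a high and a low range. These went partly with the sample number series. In the series of 6 mice they were 1035, 979, 1046, 1311, 814 and 107 for mice 9, 10, 11, 12, 13 and 14. In the series of 4 mice they were 103, 21, 43 and 22 for mice 4, 5, 6 and 7, and in the series of 2 mice 1262 for mouse 1 and 42 for mouse 3. Thus 6 libraries had 814 counts or more and the other 6, all mice of the series of 4 among them, had 107 or fewer. In normalized CPM the gap was narrower, with the 6 low libraries at 3.87 to 31.9 and the 6 high ones at 65.6 to 210. Mouse 3, in the low range, had the library with the fewest reads on genes, 1352288.

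Gpnmb was likewise present in every FC dVenus+ library, with another order of mice. It had between 27 and 2176 counts in FC dVenus+ libraries, with a median of 251, or 6.02 to 211 normalized CPM with a median of 41.1. In FC dVenus- libraries it was at 0 in 6 mice, at 2 to 11 counts in 5 mice, and at 122 counts in mouse 1. Its dVenus+ library was the higher one in 12 of 12 mice. Summed over mice it was 61.7-fold higher in dVenus+ libraries (counting interval 52.5 to 73.1), from 6731 against 150 counts, with a log2 fold change of 6.90 ± 1.05 (SE, n = 12 mice; 6.29 to 7.92 leaving out 1 mouse at a time). Mouse 1 held 122 of the 150 dVenus- counts, and without it the ratio was 318 (counting interval 220 to 479). Mouse 6 had the most Gpnmb, 2176 counts, with 43 counts of Blnk. By counts mouse 12 had the most Blnk, 1311, with 50 counts of Gpnmb, while by normalized CPM mouse 9 had the most (210). By series, the 4 mice low in Blnk had 66, 27, 2176 and 1137 counts of Gpnmb for mice 4, 5, 6 and 7.

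**Figure D1:**
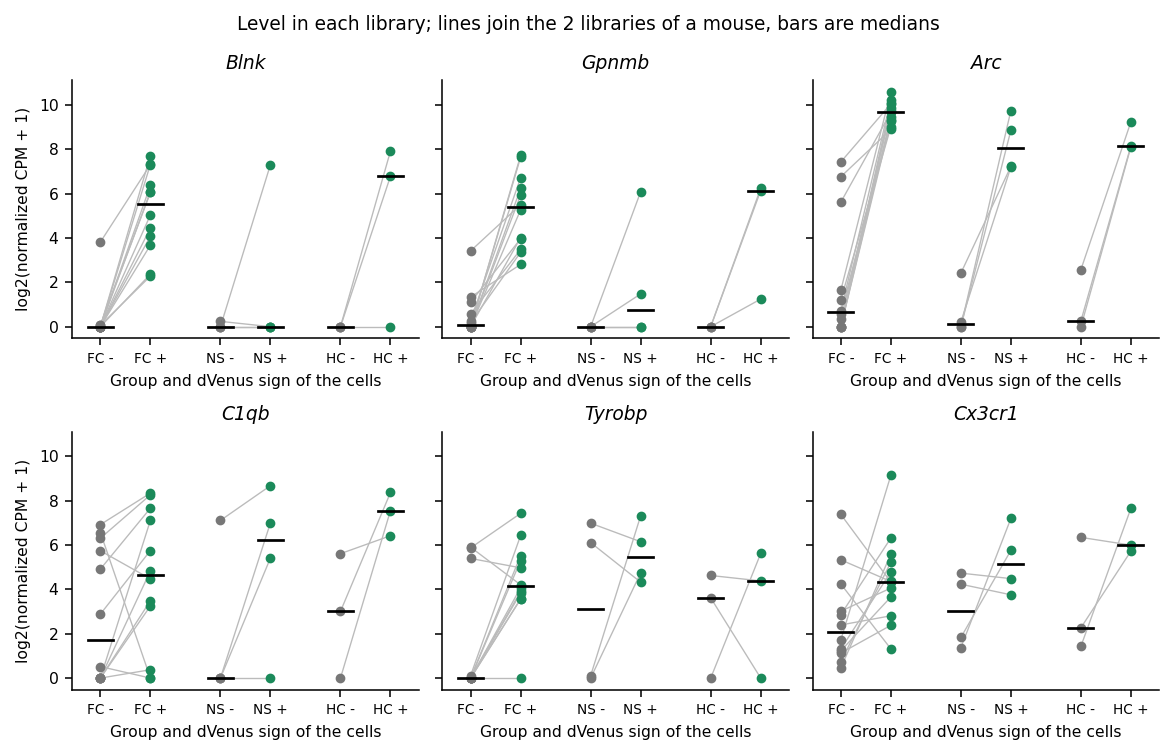
Levels of 6 genes in each library, as log2 of normalized CPM plus 1, by group (FC, NS, HC) and by the dVenus sign of the cells. Lines join the 2 libraries of a mouse and bars mark medians. Blnk and Gpnmb lie above the dVenus- library in 12 of 12 FC mice, as Arc does, while C1qb, Tyrobp and Cx3cr1 also reach high levels in dVenus- libraries.

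In unshocked mice both genes were again counted almost only in dVenus+ libraries, but not in every mouse. Blnk had 883, 0 and 829 counts in the dVenus+ libraries of HC mice 15, 16 and 17, and 0 counts in the 3 dVenus- libraries. In NS mice it had 1173 counts in the dVenus+ library of mouse 18 and 0 counts in those of mice 19, 20 and 21, with 1 count in 1 dVenus- library, that of mouse 19. The 3 unshocked libraries with Blnk thus had counts as high as the high FC libraries, and the other 4 had none. Over the 3 HC mice Blnk was at least 684-fold higher in dVenus+ libraries, against 3 counts over the group. Over the 4 NS mice the ratio was 1484 (counting interval 266 to 58654), and it rested on mouse 18 alone, without which NS dVenus+ libraries held 0 counts.

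Gpnmb had 5, 161 and 526 counts in the dVenus+ libraries of HC mice 15, 16 and 17. In NS mice it had 498, 6, 0 and 0 counts in the dVenus+ libraries of mice 18, 19, 20 and 21. All 7 unshocked dVenus- libraries were at 0 counts. It was higher in the dVenus+ library in 5 of 7 unshocked mice and at 0 in both libraries in the other 2. Against 3 counts over the group, Gpnmb was at least 276-fold higher in HC and at least 212.5-fold higher in NS dVenus+ libraries, the latter resting mostly on mouse 18. Mouse 15 had much Blnk and almost no Gpnmb, and mouse 16 the reverse.

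Neither gene passed the count filter in unshocked mice (10 or more counts in 7 or more libraries), so the test comes from the fit without that filter, over 15632 genes. The log2 fold change of Blnk was 11.0 ± 2.80 (SE, n = 7 mice; Benjamini-Hochberg adjusted p = 0.297, by edgeR's quasi-likelihood F test). It was 10.3 ± 3.17 for Gpnmb (adjusted p = 0.423). A fitted value against libraries at 0 depends on the prior count and is no bound. Neither gene was therefore called in unshocked mice after adjustment over all genes, with Blnk higher in 3 of 7 and Gpnmb in 5 of 7 mice. The adjustment ran over 15632 genes, against 7529 with the filter, so these adjusted p-values cannot be set beside those of members past it. Without the mouse as a block, the adjusted p of Blnk was 0.0459. Whether the difference between cell types itself differed between FC and unshocked mice was not tested for these genes.

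The complement genes C1qa and C1qb, which mark microglia in the brain, were higher in the dVenus+ library of most mice, but were as abundant in some dVenus- libraries. C1qa had 0 to 1291 counts in FC dVenus+ libraries (median 278) and 0 to 1509 in dVenus- libraries (median 0), and was higher in dVenus+ in 10 of 12 mice. C1qb had 0 to 1846 counts (median 274.5) and 0 to 2743 counts (median 53), and was higher in dVenus+ in 9 of 12 mice. The ranges of dVenus+ and dVenus- libraries overlapped over nearly their whole width. The log2 fold changes in FC mice were 4.00 ± 1.14 for C1qa and 2.56 ± 0.964 for C1qb (SE, n = 12). In unshocked mice C1qa had 188, 371 and 55 counts in HC dVenus+ libraries against 0, 0 and 667 in dVenus-, and 148, 204, 989 and 484 in NS dVenus+ against 0, 0, 0 and 140. C1qb had 685, 712 and 640 against 0, 35 and 493 counts in HC, and 310, 0, 632 and 1754 against 0, 0, 0 and 1717 in NS mice. Each was higher in dVenus+ in 6 of 7 unshocked mice, and their log2 fold changes of 5.10 ± 1.52 and 4.48 ± 1.31 had adjusted p-values of 0.101 and 0.0999 in edgeR's test.

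The surface receptors of microglia were patchy in both cell types. Cx3cr1, the fractalkine receptor, was counted in all 38 libraries, with medians of 136.5 counts in FC dVenus+ and 21 in FC dVenus- libraries, and was higher in dVenus+ in 9 of 12 FC and 4 of 7 unshocked mice. P2ry12, the ADP receptor by which microglia find injury, had medians of 4.5 and 25.5 counts, and was higher in dVenus+ in 6 and in dVenus- in 5 of 12 FC mice. In unshocked mice its summed counts were lower in dVenus+ libraries, 909 against 2772, with a fitted log2 fold change of 0.03 ± 2.03. Csf1r, the receptor for the survival factor of microglia, was higher in dVenus+ in 10 of 12 FC mice, with medians of 92 and 0 counts, and in 5 of 7 unshocked mice. The HC dVenus- library of mouse 16 held 1338 counts of Fcgr3, against 78 in the 3 HC dVenus+ libraries together, and 1505 counts of P2ry12, against 714.

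The ITAM adaptor Tyrobp and its partner Trem2 differed in how often they were seen. Tyrobp was present in 11 of 12 FC dVenus+ libraries with at least 10 counts and in 3 of 12 dVenus- libraries, which held 808, 487 and 1311 counts in mice 5, 6 and 7. In unshocked mice it was higher in dVenus+ in 3 and in dVenus- in 4 of 7 mice, with a log2 fold change of 1.11 ± 1.51 (adjusted p = 0.766, edgeR). Trem2 had at least 10 counts in 5 of 12 FC dVenus+ and 3 of 12 FC dVenus- libraries, and Fcgr3, a low-affinity receptor for IgG, in 5 and 2. Trem2 and Fcgr3 were below the count filter in FC and in unshocked mice.

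In FC mice, 8 of the 10 members passed the filter (at least 10 counts in at least 12 libraries), and Blnk, Gpnmb, C1qa, Csf1r and Tyrobp, 5 of these 8, were called higher in dVenus+ cells (adjusted p under 0.05 and log2 fold change over 1), where 4.35% of the 9709 genes tested were called, 1.5% higher and 2.84% lower. Blnk, Gpnmb and Tyrobp were called in 12 of 12 fits that left out 1 mouse, and C1qa in 4 of 12 (kept without mouse 3, 5, 6 or 7). Csf1r was called in all 9 of these fits in which it passed the filter, and was below it, so not tested, without mouse 5, 6 or 7. C1qa was also lost with a lower or no count filter, the older edgeR method called 3 members (Blnk, Gpnmb, Tyrobp), and without the mouse as a block only Blnk and Gpnmb were called. Nothing is read from these counts, since this contrast chose the genes, and Blnk and Gpnmb passed the filter through the dVenus+ libraries. In unshocked mice 5 members passed the filter, and none was called by edgeR (C1qa was when mouse 17 was left out), where 0.757% of 7529 genes were called, 0.319% higher and 0.438% lower. At an unadjusted p under 0.05, C1qa, C1qb and Csf1r were higher in dVenus+ cells, 3 of 5 members, against 7.72% of all genes higher and 16.3% in either direction, and DESeq2's Wald test called these 3 and Cx3cr1, with 1065 of 7529 genes. Blnk and Gpnmb, below the filter there, were not among those 5 members. No member was called by edgeR in NS or HC mice on their own, where 0.0489% (0.0366% higher, 0.0122% lower) and 0% of genes were called. At an unadjusted p under 0.05, 2 of 5 members were higher in NS mice, against 4.21% of all genes higher and 8.67% in either direction. In HC mice 1 of 7 was higher, against 3.8% higher and 7.01% in either direction. DESeq2's Wald test called C1qa, C1qb and Csf1r in NS mice and C1qa and Csf1r in HC mice.

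**Figure D2:**
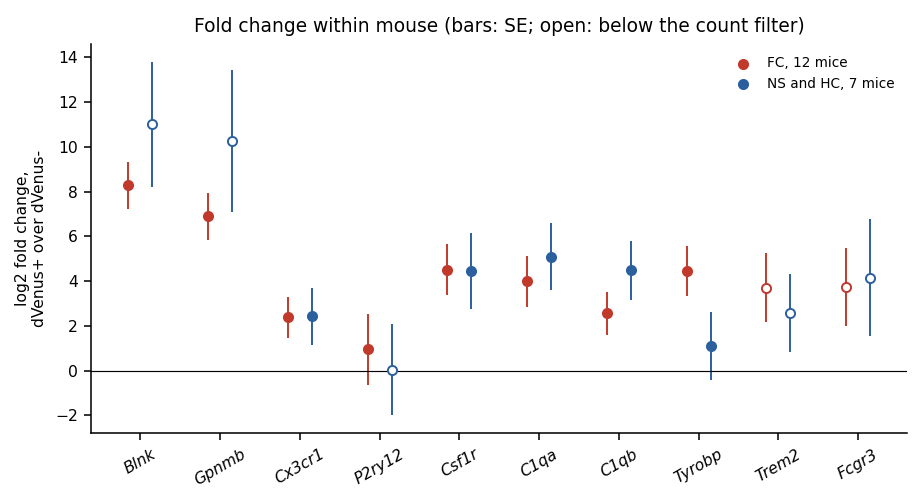
Log2 fold change of the 10 members, dVenus+ over dVenus- within mouse, with its SE, for the 12 FC and the 7 unshocked mice. Open circles are members below the count filter. Blnk (8.28 and 11.0) and Gpnmb (6.90 and 10.3) have the highest values, and those of P2ry12 (0.95 and 0.03) lie near 0.

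Per kilobase of exon, the level of Blnk in FC dVenus+ libraries was of the order of the microglial genes and far below Arc. The length was that of all GENCODE exons of a gene merged, such as 667 bases for Tyrobp and 5991 for Blnk. The counts were made on NCBI transcripts, so the order of genes could depend on this choice of length, which was not tested. The median was 8.14 normalized CPM per kilobase for Blnk and 6.31 for Gpnmb. The medians of Tyrobp, C1qb and C1qa were higher, at 24.998, 22.4 and 21.2, and those of Cx3cr1, Csf1r and P2ry12 lower, at 4.29, 3.44 and 0.943. Trem2 and Fcgr3 came last, at 0.00834 and 0, and Arc stood at 271. The ranges over the 12 libraries overlapped between every pair of neighbours in this order of members.

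Set side by side library by library, Blnk and Gpnmb were absent from several libraries rich in microglial RNA and abundant in some that held little of it. The 8 microglial members summed to 20.1 to 1386 normalized CPM in FC dVenus+, 104 to 994 in unshocked dVenus+, 0.372 to 467 in FC dVenus- and 1.67 to 598 in unshocked dVenus- libraries. The 6 dVenus- libraries with the most microglial RNA (HC mouse 16, FC mouse 5, NS mouse 21, FC mouse 7, HC mouse 17 and FC mouse 6, at 598, 467, 458, 390, 328 and 235 normalized CPM) held between 6 and 7 of the 8 microglial genes at 10 counts or more. In those 6 libraries Blnk had 1 count in FC mouse 7 and 0 in the other 5, and Gpnmb had 0 counts in all 6. The FC libraries among them are part of the contrast that chose Blnk and Gpnmb, so their low counts are a description. Among dVenus+ libraries, those of NS mice 20 and 21 were among the 5 with the most microglial RNA, at 944 and 817 normalized CPM, with 7 of the 8 genes each, and had 0 counts of Blnk and of Gpnmb. The others of these 5, FC mouse 9, HC mouse 16 and FC mouse 7, had 1035, 0 and 22 counts of Blnk. They had 72, 161 and 1137 counts of Gpnmb. At the other end, the dVenus+ library of FC mouse 12 had the least microglial RNA of all 19, 20.1 normalized CPM from 167 counts, and the most Blnk counts of all libraries, 1311. In normalized CPM its Blnk (157.8) was below that of HC mouse 15 (242.2), FC mouse 9 (210.2), FC mouse 1 (159.3) and NS mouse 18 (158.1). Of these, FC mouse 9 had the most microglial RNA of all dVenus+ libraries, 1386 normalized CPM. FC mouse 13 was next lowest in microglial RNA, with 42.0 normalized CPM, and had 814 Blnk counts (67.2 normalized CPM).

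**Figure D3:**
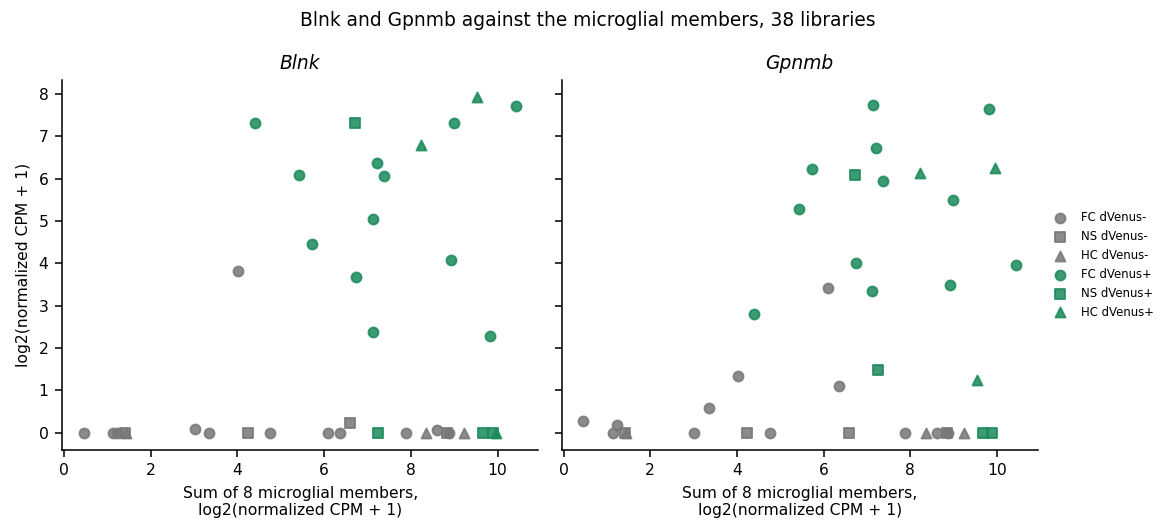
Blnk (left) and Gpnmb (right) against the sum of the 8 microglial members in the 38 libraries, both as log2 of normalized CPM plus 1. Green symbols are dVenus+ and grey symbols dVenus- libraries, and shapes give the group. Grey symbols reach 598 normalized CPM of microglial RNA along the zero line of both genes, and green symbols are high at low as well as at high microglial RNA.

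Counted over libraries, 14 of 19 dVenus+ libraries held at least 5 of the 8 microglial genes at 10 counts or more, and Blnk reached 10 counts in 11 and Gpnmb in 10 of these 14. Of the 5 dVenus+ libraries with fewer microglial genes, Blnk reached 10 counts in 4 and Gpnmb in 5. In contrast, 7 of 19 dVenus- libraries held at least 5 microglial genes, and Blnk reached 10 counts in 0 and Gpnmb in 1 of these 7. Per 100 counts on the 8 microglial genes there were 25.7 counts of Blnk in FC dVenus+ libraries and 0.224 in FC dVenus- libraries. In unshocked mice there were 17.4 in dVenus+ libraries and 0.00784 in dVenus- libraries. The corresponding values of Gpnmb were 25.5 and 0.746 in FC, and 7.23 and 0 in unshocked mice. Within dVenus+ libraries that share of Blnk ran from 0 in 4 unshocked mice and 0.429 in FC mouse 7 to 785 in FC mouse 12. Comparisons of FC dVenus+ with FC dVenus- libraries here hold the contrast that chose Blnk and Gpnmb, and are given as a description.

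A separate list held 20 other microglial genes, among them Ctss, Aif1 and C1qc. Their summed level had a median of 502 normalized CPM in FC dVenus+ (range 34.3 to 2063) and 63.3 in FC dVenus- libraries (3.51 to 984). In unshocked mice the medians were 601 (44.5 to 1661.5) and 139 (3.25 to 489). In FC mice 8 of the 20 passed the filter, and 2 of these, Aif1 (3.52 ± 0.854) and the complement gene C1qc (3.67 ± 0.951), were called higher by log2 fold change and adjusted p, and 0 lower, against 1.5% and 2.84% of all 9709 genes tested. The most abundant, the lysosomal protease gene Ctss, had a log2 fold change of 4.10 ± 1.495 in FC mice (adjusted p = 0.121, edgeR). In unshocked mice 7 passed and 0 were called by edgeR, with 1, Ctss, higher at an unadjusted p under 0.05, against 7.72% of all genes higher. The median log2 fold change of the listed genes that passed was 2.86 in FC and 2.72 in unshocked mice, against -0.11 and -0.15 over all genes tested.

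The activity genes were the other candidates. In FC mice 10 of the 11 of the 14 sustained activity genes that passed the filter were called higher and 1, the phosphatase gene Dusp14, lower, with a median log2 fold change of 4.53. Over all 9709 genes tested, 1.5% were called higher and 2.84% lower. The list was chosen with earlier results of these data known, so these FC calls are no independent test of it. In unshocked mice 3 of 11 were called higher, where 0.319% of all 7529 genes tested were: Arc (8.31 ± 1.05), Inhba, an activin subunit (7.60 ± 1.38), and the kinase gene Sgk1 (7.38 ± 1.71), with adjusted p-values of 4.08e-05, 0.00836 and 0.0491 in edgeR's test. Penk, the proenkephalin gene, had 3.05 ± 1.12 (adjusted p = 0.183). Atf3, a stress and activity response factor below the filter in both, had at least 10 counts in 10 of 12 FC dVenus+, in 5 of 7 unshocked dVenus+ and in 1 of 19 dVenus- libraries. Among 11 early activity genes such as Homer1, Junb and Egr1, 6 passed the filter in FC mice and 1 was called higher, with a median log2 fold change of 0.40. In the 3 dVenus- libraries that held at least 1095 counts of Arc (FC mice 6, 7 and 14), Blnk had 0, 1 and 0 counts and Gpnmb 0, 0 and 2. These libraries are part of the contrast that chose Blnk and Gpnmb.

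**Figure D4:**
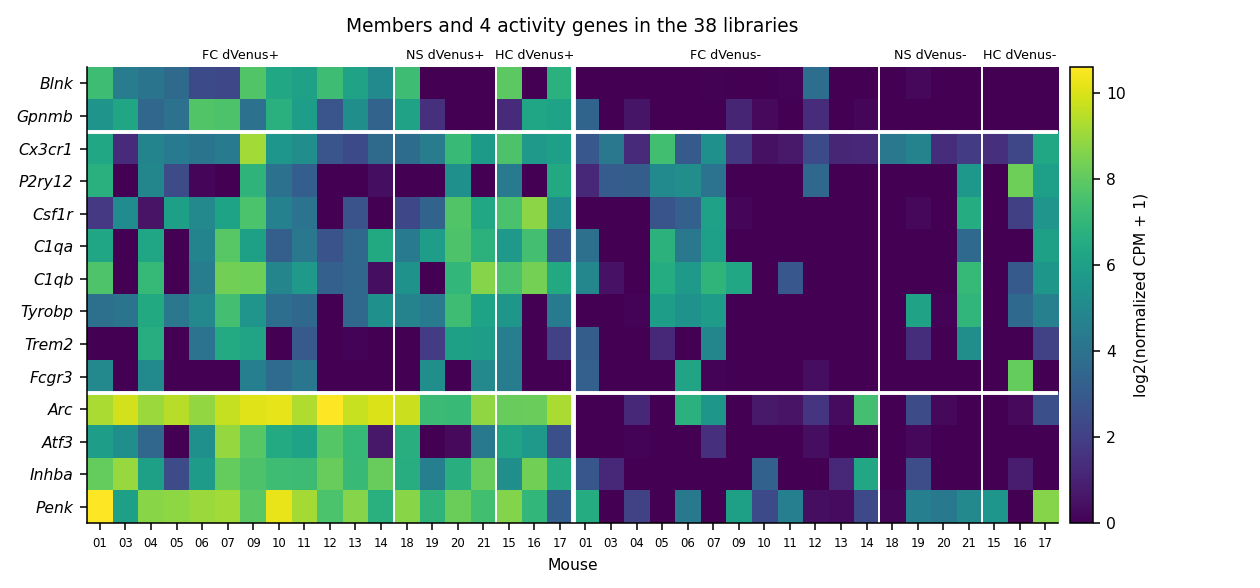
The 10 members and 4 activity genes (Arc, Atf3, Inhba, Penk) in the 38 libraries, as log2 of normalized CPM plus 1, with dVenus+ libraries on the left and dVenus- libraries on the right. White lines part the groups and the sets of genes. The rows of Blnk and Gpnmb are dark on the right, apart from mouse 12 (43 counts of Blnk) and mouse 1 (122 counts of Gpnmb), while the microglial rows have bright columns on both sides.

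Across the 12 FC dVenus+ libraries, which hold the dVenus sign fixed, neither list had a relation to Blnk or Gpnmb that passed adjustment. These values share the library and its scaling, and 34 relations were computed in 4 sets of libraries. With the mean log2 level of the 20 other microglial genes, Blnk had r = 0.15 (permutation p = 0.657, adjusted 0.791) and rho = -0.007 (p = 0.991). Without the 2 libraries farthest from the median of the list r was -0.17, and centred on the sample number series it was 0.50 (p = 0.0939). With the mean of the 14 activity genes Blnk had r = 0.43 (permutation p = 0.158, adjusted 0.384), rho = 0.36 (p = 0.249) and r = 0.43 without the 2 farthest libraries. In the series of 6 mice that r was 0.85 (exact permutation p = 0.0278) and centred on the series over all 12 mice 0.12 (permutation p = 0.696). Whether the relation differed between series was not tested. The other series hold 4 and 2 mice, too few for a value. On CPM without TMM scaling the r of Blnk with the activity genes was 0.72 (permutation p = 0.00472).

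Gpnmb had r = -0.11 with the microglial list (permutation p = 0.741, adjusted 0.839; rho = 0.021, p = 0.955) and r = 0.35 with the activity list (permutation p = 0.265, adjusted 0.50; rho = 0.31, p = 0.319). Without the 2 farthest libraries the values were 0.33 and 0.053, centred on the series -0.086 and 0.50, and in the series of 6 mice 0.078 and 0.34. For the microglial members on the same libraries, r with the microglial list was 0.86 for Cx3cr1 (permutation p = 0.00048, adjusted 0.00816), 0.72 for C1qb (p = 0.00717, adjusted 0.0604) and 0.70 for P2ry12 (p = 0.00888, adjusted 0.0604). That of P2ry12 fell to 0.44 without the 2 farthest libraries. C1qa, Tyrobp and Csf1r had 0.56, 0.52 and 0.36. Centred on the series these 3 had 0.53, 0.57 and 0.36, beside 0.50 for Blnk, and whether any member differed from Blnk or Gpnmb in its r was not tested. Only the value of Cx3cr1 among these passed an adjusted threshold of 0.05 by Pearson's r. With the activity list, C1qb had the highest r of the members, 0.60 (permutation p = 0.0383, adjusted 0.163), which was 0.17 without the 2 farthest libraries. Trem2 and Fcgr3 were above 3 counts in fewer than 6 of these libraries and were not correlated. In the other sets of libraries Blnk and Gpnmb were too sparse, and the microglial members did not all go with the microglial list. In FC dVenus- libraries r with that list was 0.87 for Cx3cr1 (adjusted permutation p = 0.013; 0.55 without the 2 farthest libraries), 0.83 for C1qb (adjusted 0.00374) and 0.60 for P2ry12 (adjusted 0.163). In the 7 unshocked dVenus+ libraries it was 0.88 for Cx3cr1, 0.57 for Csf1r, 0.42 for Tyrobp, 0.31 for C1qa and 0.090 for C1qb, and C1qb had 0.68 with the activity list (exact permutation p = 0.099, adjusted 0.281; -0.57 without the 2 farthest). In the 7 unshocked dVenus- libraries Cx3cr1 had -0.039 with the microglial and 0.73 with the activity list (exact permutation p = 0.0649, adjusted 0.221; -0.40 without the 2 farthest).

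**Figure D5:**
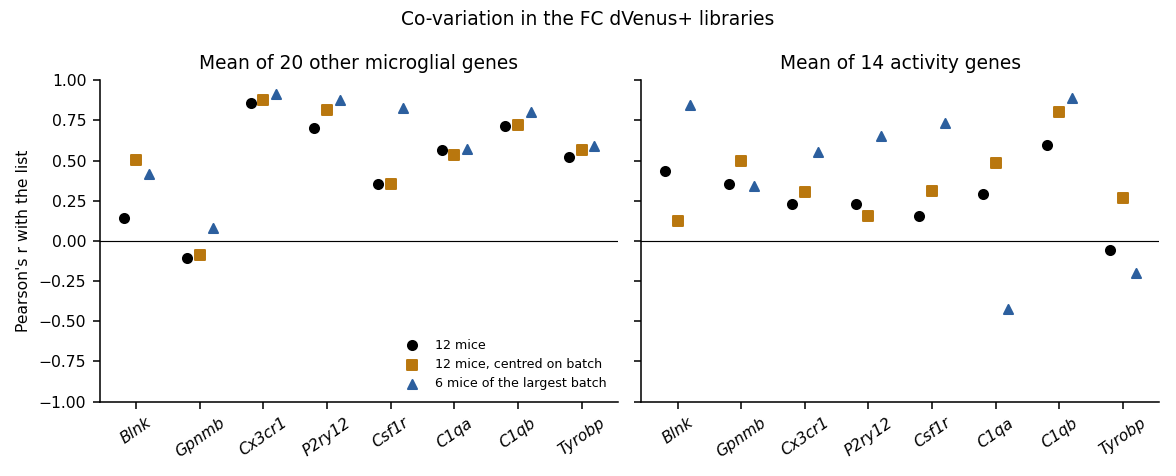
Pearson's r of each member with the mean log2 level of 20 other microglial genes (left) and of 14 activity genes (right) over the FC dVenus+ libraries. Circles use 12 mice, squares the same mice centred on the sample number series, and triangles the 6 mice of the largest series. By circles, the 6 microglial members lie between 0.36 and 0.86 on the left, where Blnk and Gpnmb lie at 0.15 and -0.11. The squares of Blnk and Gpnmb there lie at 0.50 and -0.086, beside 0.36 for Csf1r, the lowest microglial member. Their triangles lie at 0.42 and 0.078, beside 0.57 for C1qa, the lowest there.

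Over all 38 libraries, the genes most like Blnk by Spearman's rho, of 11262 compared, were Atf3 (0.79), Arc (0.78), Ptprz1 (0.74), Kcna4 (0.73) and Lmo7 (0.70). Those most like Gpnmb were Pappa (0.77), Arc (0.73), Lphn3 (0.71), Syne1 (0.70) and Atf3 (0.70). Of the 14 sustained activity genes, 13 came within the first 5% of genes for both, with median places of 44.5 and 25.5. The 13 of the 20 other microglial genes that could be ranked had median places of 2528 for Blnk and 3690 for Gpnmb, with 1 and 0 within the first 5%. This order holds the contrast that chose the genes, since the 38 libraries are split between dVenus+ and dVenus- cells, and is given as a description. Within the 19 dVenus+ libraries centred on their groups the order was another: the nearest genes were Tmed4 (0.88), Ptges2 (0.81), Mir22hg (0.80), Esco1 (0.79) and Tmem68 (0.79) for Blnk, and Ankrd24 (0.81), AU019823 (0.80), N6amt2 (0.76), Vps4b (0.73) and Rbm17 (0.73) for Gpnmb. The median place of the activity genes was then 4708 and 6657.5, and that of the microglial genes 7159 and 9684. Nptx2 (place 75) and Sorcs3 (place 308), both activity genes, were still within the first 5% for Blnk, no activity gene was for Gpnmb, and 0 of the 13 microglial genes were for either.

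The known signalling partners of Blnk were mostly too low to test. Of 12 genes of ITAM signalling, 2 passed the filter in FC mice and 0 were called in either direction, with 0 at an unadjusted p under 0.05 in edgeR's test and a median log2 fold change of 0.079. Grb2, an adaptor found in most cells, was the most abundant, and Syk, Btk and Plcg2 were below the filter in FC and unshocked mice. Of 15 genes related to Gpnmb (the MITF family and genes of phagocytic microglia), 5 passed in FC mice and 0 were called, with a median of 0.17, and in unshocked mice 5 passed and 0 were called, with 1, Cd63, a lysosomal tetraspanin, higher at an unadjusted p under 0.05 (3.30 ± 1.22 on the log2 scale), against 7.72% of all genes higher. Apoe, the most abundant of these and a lipid carrier of glia, had 10723 counts in FC dVenus+ and 70878 in FC dVenus- libraries and was higher in dVenus+ in 4 of 12 FC mice.

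Markers of other cell types moved between dVenus+ and dVenus- cells too, and their part in the values of Blnk and Gpnmb was not tested. All 6 granule cell genes passed the filter in FC mice, and 4 were called lower in dVenus+ cells, against 2.84% of all 9709 genes tested. Their median log2 fold change was -1.75. In unshocked mice 0 of the 6 were called by edgeR, where 0.438% of all genes were called lower, and the median was -2.27. At an unadjusted p under 0.05, 5 of the 6 were lower, against 648 of all 7529 genes tested. Of 4 perivascular macrophage genes 1 passed the filter and 0 were called in FC and in unshocked mice, and the summed level of the list had medians of 2.53 normalized CPM in FC dVenus+ and 2.16 in FC dVenus- libraries. Of 5 B cell genes none passed the filter. Astrocyte (5 genes) and oligodendrocyte (4 genes) lists each had 2 genes past the filter in FC mice and 0 called, with summed medians of 166 and 427 normalized CPM in FC dVenus+ and 314 and 516 in FC dVenus- libraries. The 2 genes of oligodendrocyte precursors and the 3 of endothelium were below the filter in FC mice, and of 3 interneuron genes 2 passed and 1 was called lower.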

How the data were processed

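Each of the 38 libraries was a pool of 10 cells amplified by SmartSeq2. The deposited values are raw counts per gene, which the authors made with TopHat2 2.0.13 (mm10) and HTSeq 0.6.0 from uniquely aligned reads. The 5 entries that name no gene were left out. One of them, reads outside genes, made up 16.4 to 59.7% of a library's reads on genes, outside genes or ambiguous between genes. In NS and HC libraries GEO's description and title differed, and the title, cell type and sample number were used.

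Counts were tested in R 4.3.3 with edgeR 4.0.16 (TMM, quasi-likelihood, the newer of its 2 methods), with mouse as a block, in separate fits for FC, NS, HC and unshocked mice. Genes needed at least 10 counts in as many libraries as there were mice. Calls needed a Benjamini-Hochberg adjusted p under 0.05 and an absolute log2 fold change over 1. Members below the filter were read from the fit without it. The 2 libraries of a mouse come from the same animal, and their deviations had median correlations of 0.0407 (FC), -0.0127 (NS) and 0.0176 (HC). DESeq2 1.42.0 gave an alternative. Correlations used log2(normalized CPM + 1) with exact permutation tests up to 7 libraries and 100000 resamples above, two-sided, in Python 3.11.15 and SciPy 1.17.1. Intervals are 95% and, like floors of 3 counts, cover counting error only. PCR reads without molecular identifiers are not independent molecules.

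The members and all lists (other microglia, sustained and early activity genes, ITAM signalling, genes related to Gpnmb, and cell type markers) were chosen with earlier results of these data known. All 10 members are named. Genes outside them are named as the nearest by rank correlation, the called genes of a list or its most abundant genes, and Dusp14, Penk, Atf3, Cd63, Nptx2, Sorcs3, Syk, Btk and Plcg2 were picked after their values were seen. The tests were tried on simulated data. Alternatives were other scalings, filters and tools, no block, and leaving out mice. Values of some list genes are not reported here.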

Additional observations from a re-analysis of the deposited data

Results flagged for a closer look

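In NS mice, the groups of 4 libraries allow a check for a library far from the other 3 (Dixon's criterion on normalized CPM). It was applied to 18 sets of 4 libraries and marked 9, but in 6 of these 9 the other 3 libraries were at 0, where any count at all is marked, so the share that chance gives (about 1 in 20) does not hold for them. In dVenus+ cells mouse 18 stood apart in Blnk (158.1 normalized CPM, the other 3 at 0) and in Gpnmb (67.11), and mouse 20 in P2ry12 (39.34). In dVenus- cells mouse 21 stood apart in P2ry12 (49.63), Csf1r (95.09), C1qa (11.21), C1qb (137.4) and Trem2 (36.42), and mouse 19 in Blnk (0.1806, which is 1 count).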

How the results depend on the processing

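Counts of calls depended strongly on the tool. With DESeq2's Wald test they were 1635 in FC, 666 in NS, 625 in HC and 1065 in unshocked mice, against 422, 4, 0 and 57, and with the older quasi-likelihood method of edgeR (added after seeing the data) 137, 0, 2 and 2. In NS and unshocked mice they were 11 and 36 with DESeq2's size factors, 1 and 8 with no count filter, 2 and 6 with a filter of 5 counts in 2 libraries, and 13 and 175 with no replicate block. They were 0 in NS without mouse 20 and 4 in unshocked mice without mouse 15, the mice whose dVenus+ library was highest in the list of 20 other microglial genes, and 15 in the 6 FC mice of the largest sample number series, where Blnk was called and Gpnmb was not. Leaving out 1 mouse at a time gave 292 to 410 calls in FC, 0 to 2 in NS, 0 in HC and 4 to 45 in unshocked mice, and log2 fold changes in unshocked mice of 9.91 to 12.2 for Blnk, 9.53 to 10.5 for Gpnmb and -1.83 to 1.70 for P2ry12. Without the block Blnk passed in unshocked mice (11.01, adjusted p = 0.0459, edgeR), and P2ry12 (-1.52) and Fcgr3 (-1.74) changed sign, as did P2ry12 without mouse 15 (-1.56). In FC dVenus+ libraries Blnk with the microglial list had r = -0.17 without the 2 farthest libraries and -0.18 on the log of the summed CPM, and Blnk with the activity list 0.72 on CPM of the total and 0.85 in the largest series. Gpnmb with the microglial list had 0.33 and 0.078 without the 2 farthest libraries and in the largest series, and with the activity list 0.60 on CPM of the total and -0.059 on the log of the sum. With the activity list Csf1r had -0.16 on the log of the sum, C1qa -0.43 in the largest series, and Tyrobp 0.045 on CPM of the total and 0.27 centred on the series. The causes were not tested.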
